A study of Arabidopsis thaliana with 4 samples.

Results

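The genes described here are those of Arabidopsis thaliana to which at least 2 binding peaks of the transcription factor MYB67 were assigned. A gene belonged to the set when its locus identifier stood in 2 or more entries of the authors' deposited gene table on chromosomes 1 to 5. The rule gave 365 genes and 766 peaks, out of 4030 nuclear genes with a peak and 5338 nuclear peaks. This was 9.06% of the nuclear genes with a peak and 1.33% of the 27444 nuclear protein-coding genes in RefSeq. The other 3665 genes had 1 peak each, and 907 nuclear peaks had no gene assigned. The genes were thus chosen by the authors' peak calls, so the number of peaks, their fold and their q-value are given as descriptions, with no test.

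Binding was measured by DNA affinity purification sequencing (DAP-seq), in which a tagged transcription factor on beads is mixed with sheared genomic DNA and the retained fragments are sequenced. The samples comprised 2 libraries with MYB67 fused to a Halo tag and 2 empty-vector libraries with the Halo tag alone. In both groups the protein was made in a wheat germ extract and the DNA came from the accession Col-0, and the labels name no treatment. The protocol names leaf as the source of the DNA, whereas the tissue label is root. The DNA carried no chromatin, so the assay shows where the protein can bind and not whether a gene is bound or expressed in a cell. All values come from 1 list made for the MYB67 libraries, the depth of the libraries is unknown, and no value has a replicate error.

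MYB67 belongs to the R2R3 MYB family, whose members contact DNA with a pair of MYB repeats. Members of this family switch on or repress the pathways that plants use to make phenolic compounds and cell walls. The phenylpropanoid pathway turns phenylalanine, made by the shikimate pathway, into the building blocks of lignin, flavonoids and the phenolic part of suberin. Suberin is a polyester of fatty acids, glycerol and ferulate that seals the endodermis and the phellem, the outer cork layer of a thickened root. The study sought direct targets of MYB67.

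The sequence element that the authors found in the peaks is shown first, because the site counts below rest on it. The most frequent base at each of its 10 positions gives the following element, in which the capitals mark positions 4 to 8, the central run of the motif.
MYB67 motif: tccACCTAcc
In the authors' deposited matrix, A made up 99.7% of bases at position 4, C 86.3% at position 5, C 99.7% at position 6, T 68.9% at position 7 and A 99.5% at position 8. The flanking bases were less uniform, with 45.3% to 79.3% for the most frequent base. Peak and promoter sequences were not used here, so individual sites are counted below but neither printed nor placed.

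Among the 365 genes, 332 had 2 peaks, 30 had 3 peaks and 3 had 4 peaks. The share of genes with a peak that belonged to the set was similar on every chromosome. The set held 100 of the 1042 genes with a peak on chromosome 1 (9.60%, 95% Wilson interval 7.95% to 11.5%), 55 of 648 on chromosome 2 (8.49%), 63 of 760 on chromosome 3 (8.29%), 59 of 621 on chromosome 4 (9.50%) and 88 of 959 on chromosome 5 (9.18%). Intervals on shares and medians cover counting error only. Membership can hang on a weak second peak. Among the genes with exactly 2 peaks, the 5 lowest −log10 q values of a weaker peak were 1.38 (AT1G33440), 2.09 (ATCSLA15), 2.16 (GUS3) and 2.21 (DIR5 and ATN1), and the lowest −log10 q of any nuclear peak was also 1.38. On the other side of the rule, 27 of the 3665 genes with 1 peak (0.737%) had a peak without a gene within 1484 bp of their own, and 139 (3.79%) had a peak of another gene within that distance.

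The peaks of one gene lay close together and were never separated by a peak of anything else. In all 365 genes the assigned peaks were consecutive peaks of the chromosome. The 401 pairs of neighbouring peaks of one gene had a median distance between summits of 1484 bp (95% interval 1296 to 1646 bp), with quartiles of 777 and 2494 bp. The 3484 neighbouring pairs assigned to different genes had a median of 16183 bp (15551 to 17119 bp). Of the pairs within one gene, 41 (10.2%) were under 500 bp apart, 146 (36.4%) under 1000 bp, 260 (64.8%) under 2000 bp and 387 (96.5%) under 5000 bp. Of the pairs of different genes, 45 (1.29%) were under 1000 bp apart and 514 (14.8%) under 5000 bp. The authors' way of assigning a gene to a peak is not stated in the labels or files, and the share of each difference that it sets was not tested.

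**Figure D1:**
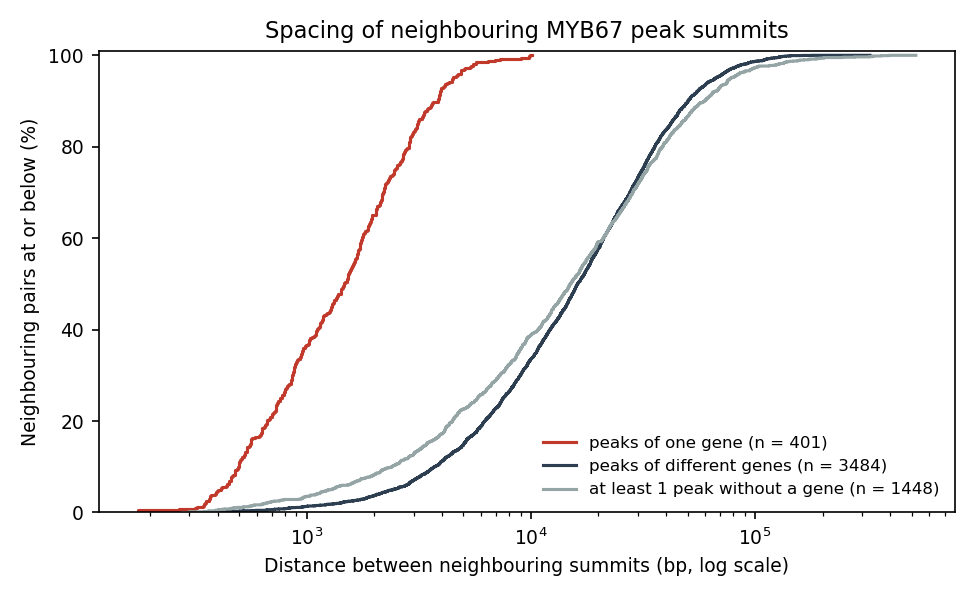
Cumulative share of neighbouring peak pairs (y axis, percent) by the distance between their summits (x axis, bp, log scale), for peaks of one gene, peaks of different genes, and pairs in which at least 1 peak had no gene. The curve of pairs within one gene reaches 96.5% by 5000 bp, where that of different genes stands at 14.8%.

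Read the other way, closeness alone did not decide that neighbouring peaks had one gene. Of the 64 neighbouring pairs under 500 bp, 41 (64.1%, 51.8% to 74.7%) were assigned to one gene, 8 to different genes, and 15 included a peak without a gene. The share with one gene was 59.3% of 177 pairs at 500 to 1000 bp, 43.2% of 264 pairs at 1000 to 2000 bp, 17.6% of 722 pairs at 2000 to 5000 bp and 0.341% of 4106 pairs beyond. The closest summits within one gene were those of AT2G07722, 176 bp apart, followed by AT4G03380 (269 bp), AT2G03980 (318 bp), AT1G27100 (325 bp) and ASG2 (346 bp). The pair of AT2G07722 was the only one whose summits lay within 200 bp, the fragment length of the labels' protocol. The widest pairs belonged to XI-I, a myosin gene (10091 bp), AT5G47020 (9957 bp), AT1G18270 (9761 bp), AT5G49430 (9048 bp) and AT1G77600 (7255 bp).

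The strongest peak of a gene exceeded its weakest by a moderate factor in most genes. Strength is the fold enrichment, the authors' ratio of signal to the modelled background, compared only among peaks of this list. The strongest peak of a gene had a median fold of 5.53 (95% interval 5.27 to 5.72) and the weakest a median of 3.91 (3.78 to 3.93), which follows in part from ordering the peaks. Their ratio had a median of 1.40 (1.32 to 1.46) and quartiles of 1.14 and 1.71. It was under 1.2 in 116 genes (31.8%), over 2 in 47 (12.9%) and over 3 in 7 (1.92%). In 175 genes (47.9%) the strongest peak stood among the top 25% of nuclear peaks by fold, and in 23 (6.30%) the weakest did too. Every peak exceeded the median fold of nuclear peaks, 4.38, in 89 genes (24.4%), and none did in 82 (22.5%). Like the medians, the ratio and these shares follow in part from ordering the peaks of a gene.

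**Figure D2:**
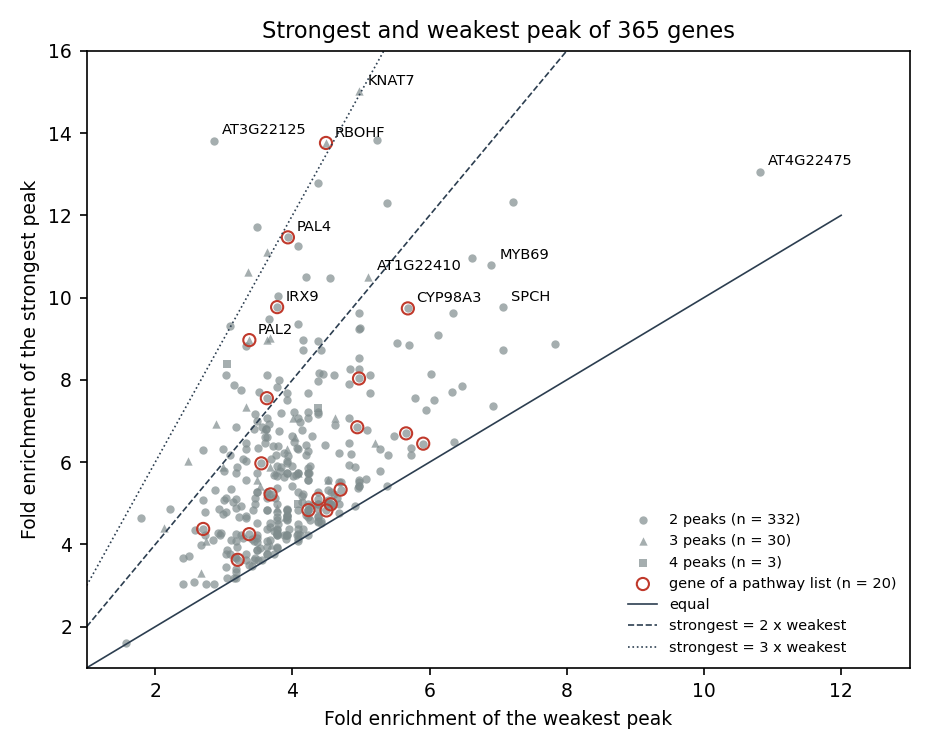
Fold enrichment of the strongest peak (y axis) against that of the weakest (x axis) for the 365 genes; symbols give the number of peaks, red circles the 20 genes of the pathway lists, and lines mark equal folds and ratios of 2 and 3. Most genes lie between the equal line and the ratio of 2, and 47 lie above it.

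The genes at both ends of this range can be named. AT3G22125 had the highest ratio, 4.84, with folds of 13.8 and 2.86 at summits 763 bp apart. It was followed by AT5G54830 (ratio 3.37), AT5G40630 (3.16), AT3G16940 (3.06) and RBOHF (3.06). Equal folds were found in FdC2, a ferredoxin gene (4.08 at both peaks), EXPB5, a beta-expansin gene (4.23), and AT5G13430 (3.18). The next lowest ratios were those of AT1G47970 (4.93 and 4.92) and AT1G55050 (5.42 and 5.38). The gene with the highest fold at its weakest peak was AT4G22475, with 13.1 and 10.8. Next came AT5G26740 (8.87 and 7.82), SUB1 (12.3 and 7.22), UBC16, a ubiquitin-conjugating enzyme (8.72 and 7.07), and SPCH, the regulator that starts the stomatal lineage (9.77 and 7.07). QRT3 (7.37 and 6.92), MYB69 (10.8 and 6.90), EIF4G, a translation initiation factor (11.0 and 6.62), and AT5G28830 (7.84 and 6.47) followed.

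The folds of neighbouring peaks had rank correlations near 0, whether or not the peaks shared a gene. Spearman's rho between the folds of neighbouring peaks was 0.0059 over the 401 pairs of one gene and -0.015 over the 3484 pairs of different genes, given as descriptions across peaks of the same libraries. The stronger of 2 neighbours exceeded the weaker by a median factor of 1.38 (1.30 to 1.44) within one gene and 1.33 (1.32 to 1.35) between genes. Among pairs under 5000 bp apart the factors were 1.39 (1.32 to 1.45, 387 pairs) within one gene and 1.30 (1.27 to 1.35, 514 pairs) between genes. These intervals overlapped, but each factor lay outside the interval of the other, and the difference was not tested. The factor was 1.21 (1.14 to 1.39) in the 41 pairs of one gene under 500 bp, 1.35 in the 105 pairs at 500 to 1000 bp, 1.44 (1.34 to 1.60) in the 114 pairs at 1000 to 2000 bp, 1.41 in the 127 pairs at 2000 to 5000 bp and 1.16 (1.06 to 1.52) in the 14 pairs beyond. The rank correlation of distance and factor was 0.012 over the 401 pairs.

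The 33 genes with 3 or 4 peaks spread over a longer stretch and a wider range of strength. Their first and last summits were a median of 2715.5 bp apart in genes with 3 peaks (range 1069 to 8538 bp) and 3574 to 5710 bp apart in the 3 genes with 4 peaks, against a median of 1526 bp in genes with 2 peaks. With 3 peaks the ratio of strongest to weakest fold had a median of 1.70 (1.54 to 2.21), against 1.35 (1.27 to 1.43) with 2 peaks. The longer stretch, a sum of more gaps between summits, and the wider range both follow in part from drawing more peaks. The strongest peak had a median fold of 6.39 in genes with 3 peaks and 5.37 in genes with 2, and the weakest a median of 3.67 and 3.93.

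**Figure D3:**
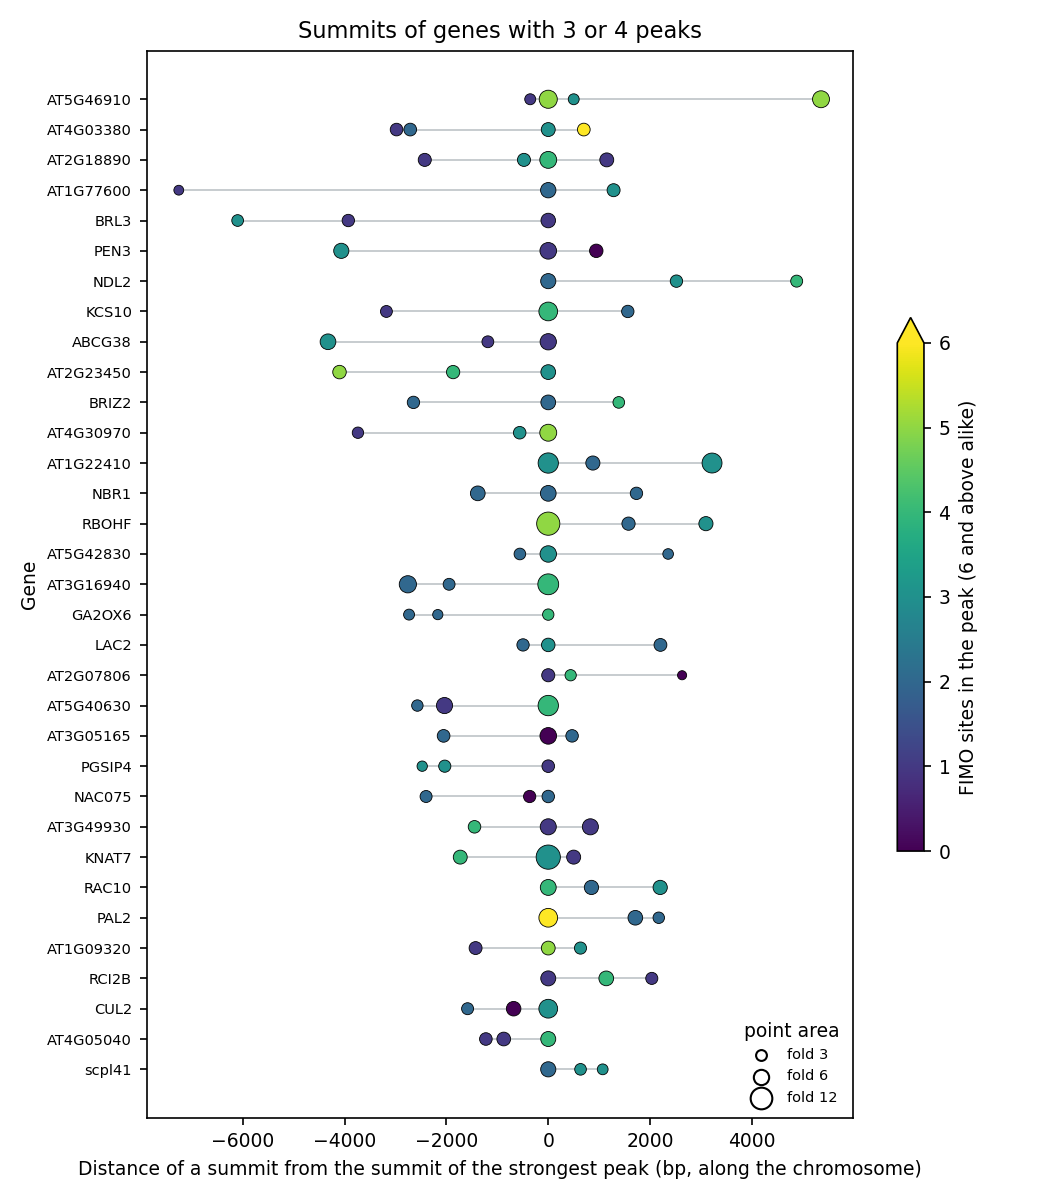
Summit positions of the 33 genes with 3 or 4 peaks, as the distance along the chromosome from the summit of the strongest peak (x axis, bp), one gene per line (y axis); point area gives the fold and colour the number of motif sites. The strongest peak is at the edge of some groups, as in PAL2 and RBOHF, and inside others, as in KNAT7 and KCS10.

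KNAT7, a homeodomain regulator of secondary walls (IRREGULAR XYLEM 11), held the highest fold of all 766 peaks. Its 3 peaks, at 23336587 to 23336844, 23338196 to 23338667 and 23338836 to 23339071 of chromosome 1 (all positions are those of the authors' peak list in TAIR10, counted from 1), had folds of 4.97, 15.0 and 5.02 and 4, 3 and 1 sites. The middle peak was the strong one, and its neighbours were alike. RBOHF, the NADPH oxidase that supplies the oxidant for lignin of the Casparian strip, had folds of 13.8, 4.49 and 5.12 in its 3 peaks on chromosome 1, at 23768405 to 23768752, 23770056 to 23770281 and 23771551 to 23771856. They held 5, 2 and 3 sites, with summits 1576 and 1520 bp apart, and here the first peak stood alone.

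The dominance of 1 peak varied among the other genes with 3 peaks. KCS10, the 3-ketoacyl-CoA synthase FIDDLEHEAD, which keeps epidermal surfaces from fusing, had folds of 3.62, 8.97 and 3.93. LAC2, a laccase, had 3.89, 4.68 and 4.23, and ABCG38, a transporter of the pleiotropic drug resistance type, had 6.31, 3.59 and 6.81. PGSIP4, also named GUX4 for glucuronic acid substitution of xylan, had 2.74, 3.80 and 4.08. NAC075, a NAC transcription factor, had 3.69, 3.86 and 3.99, with no site in the middle peak. In these genes the pattern ranged from 1 dominant peak (KCS10) to peaks of nearly the same strength (NAC075).

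Further genes with 3 peaks had other roles. BRL3, a brassinosteroid receptor of the vascular tissue, had folds of 3.52, 3.93 and 5.42, and GA2OX6, a gibberellin 2-oxidase, which inactivates gibberellins, had 3.07, 2.67 and 3.32. RAC10, a small GTPase, had 6.46, 5.20 and 5.20. CUL2, a cullin gene, had 3.67, 5.42 and 9.02, and no site was listed for its middle peak. PEN3, here the putative triterpene synthase AT5G36150, had 5.87, 7.07 and 4.62, and NBR1, a receptor for selective autophagy, had 5.55, 6.32 and 3.93. GA2OX6 thus had 3 peaks that were all below the nuclear median fold, while every peak of RAC10 was above it.

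Among genes without a symbol in RefSeq, AT1G22410, taken up again with the shikimate list below, had 2 strong peaks around a weaker one, with folds of 10.5, 5.11 and 10.2. AT3G16940 had 7.58, 3.63 and 11.1, AT5G40630 had 3.35, 6.67 and 10.6, and AT1G77600 had 2.48, 6.02 and 4.33. The 3 genes with 4 peaks were AT2G18890 (4.38, 4.38, 7.30 and 4.98), AT4G03380 (4.08, 4.15, 4.98 and 4.15) and AT5G46910 (3.09, 8.38, 3.05 and 7.34). The peaks of AT4G03380 were nearly equal, and those of AT5G46910 alternated between weak and strong. The other 13 genes with 3 peaks were AT1G09320, AT2G07806, AT2G23450, BRIZ2, AT3G05165, RCI2B, AT3G49930, AT4G05040, AT4G30970, NDL2, scpl41, AT5G42830 and the phenylalanine ammonia-lyase gene PAL2, described below.

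Peaks of these genes held motif sites about as often as those of genes with 1 peak. Sites are the authors' FIMO matches with a q of at most 0.05, and 96.3% of all nuclear peaks had at least 1. The share was 743 of 766 peaks (97.0%, 95.5% to 98.0%) in genes with 2 or more peaks, and 3536 of 3665 (96.5%, 95.8% to 97.0%) in genes with 1 peak. The mean number of sites was 2.36 per peak in genes with 2 or more peaks and 2.30 in genes with 1, with a median of 2 in both. Per 100 bp of peak the values were 0.851 and 0.843 sites, in the same order. With sites of q up to 0.01, present in 47.5% of all nuclear peaks, the shares were 46.0% (42.5% to 49.5%) in genes with 2 or more peaks and 49.6% (48.0% to 51.2%) in genes with 1 peak. The intervals overlapped, but each share lay outside the interval of the other, and the difference was not tested.

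Every peak held a site in 342 of the 365 genes (93.7%), and no gene lacked a site in all of its peaks (0 of 365, 95% Wilson upper limit 1.04%). A site of q up to 0.01 was present in every peak of 64 genes (17.5%), in some but not all peaks of 210 (57.5%) and in none of 91 (24.9%). The 23 peaks without a site included strong ones. These were the second of 3 peaks of AT3G05165 (fold 7.07), the weaker peak of SPCH (7.07), and peaks of AT5G28750 (6.47), AFP3 (5.72), AT3G42180 (5.72), CUL2 (5.42) and PP2-A12 (5.22), chosen after their values were seen.

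Within a gene, the stronger peak tended to hold more sites and to be wider. Over the 362 genes with unequal folds, the strongest peak had more sites than the weakest in 181 (50.0%, 44.9% to 55.1%), as many in 66 (18.2%) and fewer in 115 (31.8%, 27.2% to 36.7%). The strongest peaks averaged 2.64 sites and the weakest 2.097. Their median widths were 292.5 bp and 238 bp, and the strongest was the wider in 265 genes (73.2%). Per 100 bp the strongest peaks held 0.874 sites and the weakest 0.827.

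The difference in sites was greatest in the genes with the most unequal peaks. In the 47 genes with a ratio over 2, the strongest peak had more sites in 36 (76.6%, 62.8% to 86.4%), as many in 7 and fewer in 4. It averaged 3.64 sites against 1.85 in the weakest peak, at median widths of 338 bp and 222 bp, or 0.985 and 0.768 sites per 100 bp. In the 102 genes with a ratio of 1.5 to 2 it averaged 2.57 sites against 2.26, but 0.822 against 0.886 per 100 bp. In the 100 genes with a ratio of 1.2 to 1.5 the means were 2.55 and 2.14 sites, or 0.857 and 0.839 per 100 bp. In the 113 genes with unequal peaks and a ratio up to 1.2 the means were 2.36 and 2.01 sites, or 0.883 and 0.785 per 100 bp. The density was thus higher in the strongest peak in 3 of the 4 classes, and lower at a ratio of 1.5 to 2.

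**Figure D4:**
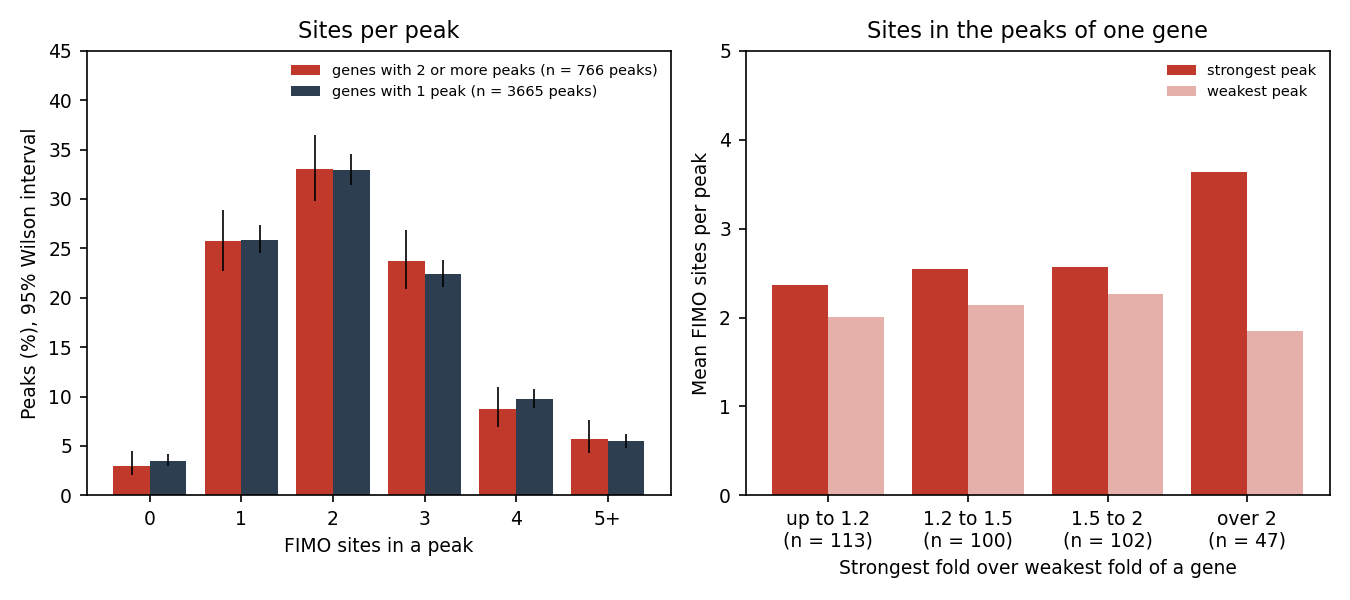
Left, the share of peaks (y axis, percent, with 95% Wilson intervals) by the number of FIMO sites they hold (x axis), for genes with 2 or more peaks and genes with 1 peak. Right, mean sites in the strongest and the weakest peak of a gene (y axis) by the ratio of their folds (x axis); the bars on the left nearly coincide, and the gap on the right is widest at a ratio over 2 (3.64 and 1.85 sites).

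A few genes combined many sites with high folds. AT4G22475 had the most, 25 sites in its first peak (chromosome 4, 11844605 to 11845446) and 12 in its second (11845825 to 11846339), at folds of 13.1 and 10.8. The strong peak of AT3G22125 (chromosome 3, 7807443 to 7808012) held 12 sites, and its weak peak 4. The first peak of PAL2 held 13 sites and was the widest of all 766, at 959 bp. Only these 4 peaks held more than 8 sites, and peaks of PSS1 and AT5G59050 held 8 each. Sites were counted as entries of the authors' site list, repeated entries included. The list gives only the position of the whole peak, so overlapping matches cannot be told from separate ones.

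The enzymes of the phenylpropanoid, shikimate, suberin and flavonoid pathways, with related lists, were then examined for repeated peaks. Across 11 lists with 217 genes, 20 genes had 2 or more peaks, which was 9.22% of the list genes, against 1.33% of all nuclear protein-coding genes. Among the 84 list genes with a peak, 23.8% had 2 or more, against 9.06% of all nuclear genes with a peak. The lists were drawn up with earlier results of these data known, so the counts describe them and support no direction. In each list the median number of peaks among the genes that had any was 1.

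**Figure D5:**
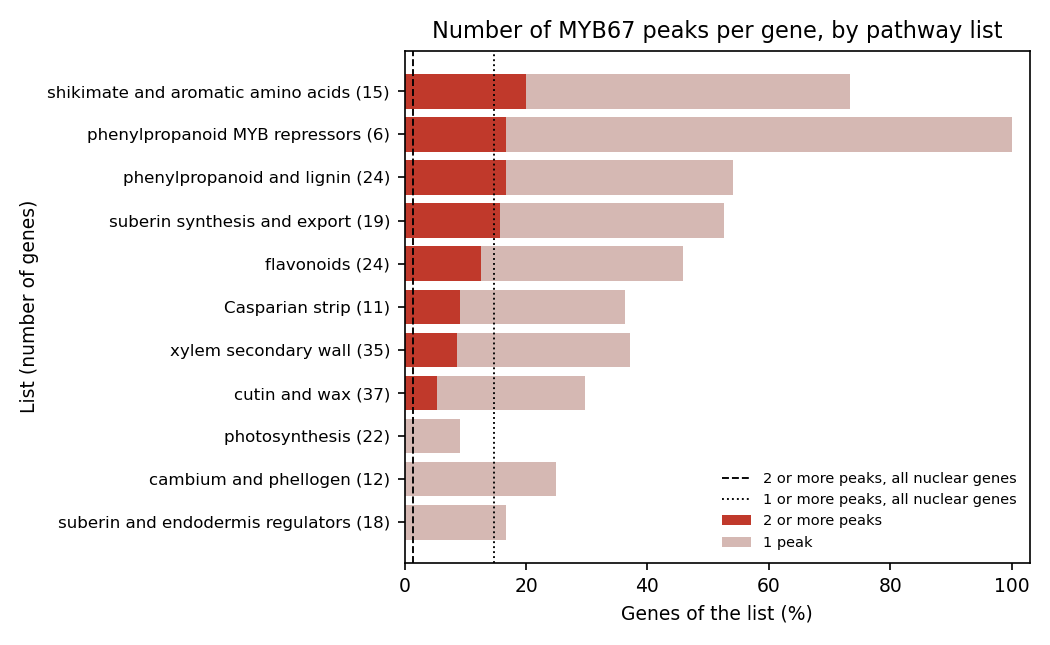
Share of each pathway list (y axis, number of genes in parentheses) with 2 or more peaks (dark bars) and with 1 peak (pale bars), in percent of the list's genes (x axis); lines mark 1.33% and 14.7%, the shares of all nuclear protein-coding genes with 2 or more and with 1 or more peaks. The dark part is longest for the shikimate list (20.0%) and missing for 3 lists.

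Phenylalanine ammonia-lyase opens the phenylpropanoid pathway, and 3 of its 4 genes had repeated peaks. PAL2 had 3, on chromosome 3 at 19746558 to 19747516, 19748322 to 19748639 and 19748812 to 19749018, with folds of 8.97, 5.51 and 3.37 and 13, 2 and 2 sites. PAL4 had folds of 11.5 and 3.93 at summits 2869 bp apart (chromosome 3, 3202733 to 3203065 and 3205622 to 3205874). PAL1 had folds of 5.22 and 3.68 at summits 3308 bp apart, and its stronger peak (chromosome 2, 15560264 to 15560750) held 7 sites against 1 in the weaker. The peaks of PAL2 and PAL4 differed in fold by more than those of PAL1, whose ratio of 1.42 was close to the median of the set, 1.40, and PAL3 had no peak.

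CYP98A3, the hydroxylase that makes caffeoyl units for lignin, had folds of 9.74 and 5.68 at summits 1450 bp apart (chromosome 2, 17062037 to 17062341 and 17060581 to 17060933), both among the top 25% of nuclear peaks. Of the 24 genes of the phenylpropanoid and lignin list, 4 had 2 or more peaks (16.7%, 6.68% to 35.9%), 9 had 1 and 11 had none. Those with 1 peak included C4H (fold 18.2), HCT (5.80), CSE (15.6), CCR1 (4.73) and COMT1 (3.87), which act between PAL and the monolignols. The others with 1 peak were 4CL1 (12.3), 4CL5 (7.68), CAD4 (4.23) and 4CL3 (3.41). The folds of C4H, CSE and 4CL1 exceeded the highest fold of the repeated genes of this list, 11.5 in PAL4.

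The shikimate pathway feeds phenylalanine to these enzymes, and 3 of the 15 genes of its list had 2 or more peaks (20.0%, 7.05% to 45.2%), 8 had 1 and 4 had none. The list is not complete. The name DHS3 matched no RefSeq name and was left out, so its locus AT1G22410, with 3 peaks, was not counted here. DHS1, which encodes the first enzyme of the pathway, had folds of 7.55 and 3.63 at summits 1603 bp apart, with 7 sites in the stronger peak and 1 in the weaker. SK1, a shikimate kinase gene, had folds of 4.83 and 4.50 at summits 466 bp apart. ADT5, whose product makes phenylalanine from arogenate, had 5.33 and 4.70 at 2176 bp. The peaks of SK1 and ADT5 were nearly equal, and those of DHS1 were not.

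In the suberin synthesis and export list, 3 of 19 genes had 2 or more peaks (15.8%, 5.52% to 37.6%), 7 had 1 and 9 had none. GPAT7, a glycerol-3-phosphate acyltransferase, had folds of 4.25 and 3.37 at summits 2117 bp apart. CYP86B1, the hydroxylase of very-long-chain suberin acids, had 4.38 and 2.70 at 779 bp, and FAR5, which makes primary alcohols of suberin, had 4.83 and 4.23 at 1721 bp. These folds were modest, and of the 6 peaks only the stronger one of FAR5 exceeded the nuclear median of 4.38. Of the 18 regulators of suberin and endodermis, none had 2 peaks (0%, up to 17.6%), 3 had 1 and 15 had none, MYB67 itself among these. The 16.7% with a peak was close to the 14.7% of all nuclear protein-coding genes. With 1.33% of those genes at 2 or more peaks, a list this small can hold none, and no difference was tested.

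The cutin and wax list held 2 genes with 2 or more peaks among 37 (5.41%, up to 17.7%), with 9 genes at 1 peak and 26 at none. Both had higher folds than the suberin genes above. GPAT8, an acyltransferase of cutin synthesis, had folds of 8.03 and 4.97 at summits 856 bp apart (chromosome 4, 174688 to 174977 and 175591 to 175853). CYP86A8, the fatty acid hydroxylase LACERATA, had 6.70 and 5.66 at summits 3841 bp apart.

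Of the 24 flavonoid genes, 3 had 2 or more peaks (12.5%, 4.34% to 31.0%), 8 had 1 and 13 had none. TT4, chalcone synthase, and TT5, chalcone isomerase, encode the first enzymes of the branch. TT4 had folds of 3.63 and 3.20 at summits 461 bp apart, with 7 sites in the stronger peak and 2 in the weaker. TT5 had 4.98 and 4.56 at 1300 bp, with 1 site in each peak. TT2, the MYB factor that turns on proanthocyanidin synthesis in the seed coat, had 5.11 and 4.38 at 1233 bp.

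In the xylem secondary wall list, 3 of 35 genes had 2 or more peaks (8.57%, 2.96% to 22.4%), 10 had 1 and 22 had none. IRX9, needed for the xylan backbone, had folds of 9.77 and 3.78 at summits 1149 bp apart. MYB63, an activator of lignin genes, had 5.97 and 3.55 at 1123 bp, with 4 sites in each peak. MYB85, another regulator of secondary walls, had 6.85 and 4.95 at 816 bp. Of the 6 MYB repressors of phenylpropanoid genes every one had a peak, against 14.7% of all nuclear protein-coding genes. Only MYB3 had 2 or more (16.7% of the list, 3.01% to 56.4%), against 1.33% of all these genes, and no difference was tested. MYB3 had 2 peaks with folds of 6.45 and 5.91 and 4 sites in each, 620 bp apart (chromosome 1, 8005970 to 8006262 and 8005332 to 8005652).

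In the remaining lists, where the share over all nuclear protein-coding genes was 1.33%, RBOHF was the only gene with repeated peaks. It was 1 of 11 in the Casparian strip list (9.09%), where 3 had 1 peak and 7 had none. No gene had 2 peaks among the 12 of cambium and phellogen, where 3 had 1, or among the 22 of photosynthesis, where 2 had 1.

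Gene families were counted against the same background, in which 14.7% of all nuclear protein-coding genes had a peak, 1.33% had 2 or more, and 9.06% of the genes with a peak had 2 or more. A family here is the genes whose RefSeq symbol carries the family name, so members under other symbols were not counted. Of 42 ABCG transporters 20 had a peak (47.6%), and ABCG38 was the only one with 2 or more (2.38% of the family). Of 115 MYB factors counted in this way 22 had a peak and 5 had 2 or more (4.35%), namely MYB52, MYB3, MYB63, MYB85 and MYB69. Among MYB genes left out of this count, TT2 had 2 peaks, MYB75 and MYB8 had 1 each, and MYB38 and MYB103 had none. Of 21 3-ketoacyl-CoA synthases 3 had a peak, and KCS10 and KCS13 had 2 or more (9.52%). The laccases had 5 genes with a peak of 14 counted, LAC2 and LAC10 with 2 or more (14.3%). The count left out LAC4, which had no peak. The NAC factors had 13 of 79, NAC010 and NAC075 with 2 or more (2.53%), and the WRKY factors 18 of 67, WRKY11 and WRKY49 with 2 or more (2.99%). The NAC count left out VND5, with 1 peak, and NST1, with none, among others. The SWEET sugar transporters (15 genes), alpha-expansins (23) and beta-galactosidases (15) each had 1 such gene, SWEET12, EXPA10 and BGAL12, and none of the 13 GAUT galacturonosyltransferases had 2 peaks. These shares rest on few genes, and no difference between families or from the background was tested.

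Peak for peak, the genes with 2 or more peaks resembled those with 1 peak. The median fold was 4.42 (4.346 to 4.600) in genes with 2 or more peaks and 4.38 (4.330 to 4.396) in genes with 1. The middle 50% of peaks ran from 3.78 to 5.72 in genes with 2 or more peaks and from 3.74 to 5.46 in genes with 1. The highest folds were 15.0 and 21.6, so the strongest peak assigned to a gene did not belong to this set. Median widths were 262 bp (254 to 268 bp) and 255 bp (253 to 258 bp), in the same order. A −log10 q of at least 10 was reached by 313 peaks (40.9%, 37.4% to 44.4%) of genes with 2 or more peaks and 1426 (38.9%) of genes with 1 peak. In 56 of the 365 genes (15.3%) every peak reached it.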

How the data were processed

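The 4 DAP-seq libraries (2 MYB67, 2 empty vector) are represented by 1 set of MYB67 peaks, with no values per library. Tools listed in the submitters' processing notes are MACS3 3.0.0a7, HOMER, bedtools, STAR 2.7.10a, Trimmomatic 0.39, FastQC and Picard 2.27.1, with the build TAIR10. Their order and settings, how libraries were combined, the use of the empty-vector libraries and the assignment of genes to peaks are not given in the sources used here. The authors' deposited peak list gives each peak's fold enrichment (a ratio), its −log10 q and an integer score. The authors' deposited gene table gives the same fold and the q-value, and the site list gives the q-value of each FIMO site. The authors' deposited motif matrix gives the fraction of each base, printed here as a percent. A higher modelled background lowers a fold, and more sequencing depth gives more peaks.

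Peaks were joined across files by position, grouped by gene, and ordered by summit with Python 3.11.15, pandas 2.3.3, numpy 2.4.6 and scipy 1.17.1. Figures were drawn with matplotlib 3.10.9. The counts of genes and of pairs, the spacing and the ratio of folds were checked on simulated peaks. The joining of peaks, the site counts and the matching of lists were not checked in this way. Shares carry 95% Wilson intervals and medians 95% order-statistic intervals, and no p-value was computed. Symbols and gene lists were matched by locus or symbol to RefSeq names of TAIR10.1. RefSeq gene starts served only to order genes when looking for neighbouring members. Peaks were not placed in exons or promoters. The members and lists were chosen with earlier results of these data known, and 12 list entries were left out as duplicates or unmatched names.

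Genes were named by rule: all with 3 or more peaks, the 10 with the highest fold at the weakest peak, the 5 with the highest and the 5 with the lowest ratio of folds, the 5 closest and the 5 widest pairs of summits, and every list gene with 2 or more peaks. This gave 76 genes, of which 1 is not reported here. Others, such as family members, were named after their values were seen. The alternatives were stricter sets of peaks, other measures of position and strength, stricter sites, repeated site entries counted once, and leaving out genes of the AT2G07 region.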

Additional observations from a re-analysis of the deposited data

Results flagged for a closer look

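Peaks on the mitochondrial chromosome were left out of the set, and there 5 genes (ATMG00060, ATMG00110, ATMG00670, ATMG00710 and ATMG01110) of the 27 with a peak had 2 peaks each. This is a signal outside the nuclear peaks, and no peak list of the empty-vector libraries was used here as a background for it. Their strongest folds ran from 2.42 (ATMG01110) to 4.56 (ATMG00110), and their summits lay 537 to 1835 bp apart. No gene there had more than 2 peaks.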

How the results depend on the processing

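The number of genes with 2 or more peaks depended on the strength asked of a peak. It fell to 100 with peaks in the upper 50% by fold and to 69 with a −log10 q of at least 10, against 365. It was 347 with peaks that hold a site, 364 with summits within 200 bp counted as 1, and 362 without the AT2G07 genes, an alternative chosen after seeing the data. The list genes numbered 10 in the upper 50% by fold (PAL2, CYP98A3, SK1, ADT5, TT5, CYP86A8, GPAT8, MYB85, MYB3 and RBOHF) and 8 above the −log10 q limit, against 20, and no suberin synthesis gene had 2 peaks under either. Of the 76 named genes, 38 kept 2 or more peaks in the upper 50% by fold, 35 above that limit and 73 with peaks that hold a site. The median spacing was 1182 bp between peak edges and 1460 to 1526 bp under the other settings, against 1484 bp. The median ratio was 2.05 with −log10 q as the strength, and 1.35 to 1.39 with other sets of peaks or genes, against 1.40. With sites of q up to 0.01, 46.0% of peaks held a site, against 97.0%, and the ratio of sites per peak between genes with 2 or more peaks and genes with 1 was 0.964, against 1.02. With repeated entries of the site list counted once, the share was again 97.0%, and the ratio was 1.015, against 1.024. No paired analysis was possible because the values come from 1 peak list without values per library. Depth is unknown, so a second peak below the calling threshold of a gene with 1 peak would not be seen.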

Other observations

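Further members are given by role, chosen after their values were seen and without a test. Enzymes and transporters of tryptophan and glucosinolate metabolism were among them. CYP79B3, which starts indole glucosinolate synthesis from tryptophan, had folds of 7.57 and 5.78 at summits 2963 bp apart. TRP1, an enzyme of tryptophan synthesis, had 6.60 and 3.60 at 2040 bp, with 6 sites in the stronger peak and 2 in the weaker. The glucosinolate transporter gene GTR2 had 4.72 and 3.92 at 349 bp. Genes of one-carbon and photorespiratory metabolism included ATMS1, methionine synthase (8.52 and 4.97 at 368 bp), SHM4, a serine hydroxymethyltransferase (7.20 and 3.83), and GLDP1, a glycine decarboxylase subunit (4.23 and 3.87).

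Regulators of development were also among the members. FT, the mobile signal of flowering, had folds of 6.40 and 3.79 at summits 1869 bp apart. The MADS-box genes CAL (5.72 and 3.18), AGL12 (8.27 and 4.83), AGL86 (7.82 and 3.78), AGL91 (5.08 and 2.70) and AGL95 (6.77 and 4.14) had 2 peaks each. The MADS-box family was not counted as a whole, so its share with repeated peaks is unknown. LBD29, a regulator of lateral root initiation, had 7.99 and 3.80. The shaggy-like kinase genes SK41 (7.22 and 4.23) and SK42 (11.3 and 4.08), and the triterpene synthase genes PEN1 (3.18 and 3.15) and LUP5 (6.18 and 5.72), also had 2 peaks.

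In 5 places 2 members were neighbours in the order of RefSeq protein-coding genes. These were CUL2 and AT1G02990, LAC2 and PUM3, GRF3 and AT2G36410, AT3G41762 and AT3G42050, and SAPX and AT4G08395. Loci of other types were left out of this order, so such loci can lie between the members of a pair. Peaks of AT3G41762 had the lowest folds of all members, 1.61 and 1.57. Of the 365 genes, 3 (AT2G07629, AT2G07722 and AT2G07806) carry locus names of the region of chromosome 2 that holds a nuclear copy of mitochondrial DNA.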
